A study of Mus musculus with 12 samples.

Results

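Acute myeloid leukaemia cells of the mouse were treated with both ruxolitinib and GSK-LSD1, with GSK-LSD1, with ruxolitinib or with the solvent, and the 4 treatments form a 2 by 2 design in which the joint action of the drugs can be measured gene by gene. The quantity described here is the interaction. It is the log2 level after both drugs, minus that after ruxolitinib, minus that after GSK-LSD1, plus that after DMSO, each as the mean of 3 libraries. It is 0 where the log2 changes of the single drugs add up to the change after both (their fold changes multiply), positive where the combination lies above that sum and negative where it lies below. Genes with a mean of at least 10 normalised read counts over the 12 libraries were examined, 11484 of the 24411 gene symbols listed, and all 12 libraries of the series entered. Every library came from BALB/c bone marrow cells into which mutant CSF3R and mutant CEBPA had been brought by retrovirus, cultured in IMDM with 20% FBS. For 24 h the cells received 50 nM ruxolitinib together with 2 nM GSK-LSD1 (the combination), 2 nM GSK-LSD1, 50 nM ruxolitinib, or DMSO. The labels do not say whether the replicates were separate cultures, so the p-values below measure only the spread between these libraries. A single dose of each drug and a single time were used, so the values speak for this pair of doses.

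CSF3R is the receptor for granulocyte colony-stimulating factor. It signals through JAK kinases to STAT transcription factors, and mutations that leave it switched on occur in leukaemia together with mutations of CEBPA, a transcription factor needed to form granulocytes. Ruxolitinib inhibits the kinases JAK1 and JAK2. GSK-LSD1 inhibits the histone demethylase LSD1 (gene Kdm1a), which the repressors GFI1 and GFI1B bring to genes of myeloid maturation. Neutrophils fill their granules in a fixed sequence during maturation: primary granule proteins such as myeloperoxidase and elastase come first, secondary and tertiary granule proteins such as lactoferrin, neutrophil collagenase and lipocalin later, under the control of C/EBP factors including C/EBP epsilon.

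The label of the cells was checked against marker genes. Mpo (6385 to 12906 normalised read counts), Cebpa (8674 to 11459) and Csf3r (1511 to 2300) were high in all 12 libraries, although reads of the introduced genes could add to the levels of Cebpa and Csf3r, while the T cell gene Cd3e did not exceed 0.994. Genes of mast cells and basophils were also high, with Cpa3, a mast cell carboxypeptidase, at 10173 to 13494. In these bulk libraries, fewer cells of a type and less RNA per cell cannot be told apart. The library sums, in multiples of each library's smallest step, were 8260995 to 8528400. On the second principal component (11.1% of the variance) ruxolitinib replicate 2 at -19.7 and combination replicate 3 at -17.3 stood apart from the other libraries, which lay between -4.64 and 9.73. Values without these 2 libraries are given beside the main results.

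For nearly every gene the combination lay close to the sum of the single effects. The median interaction over the 11484 genes was -0.01 (log2), the 5th and 95th percentiles were -0.34 and 0.31, and the median standard error was 0.13. Mmp8, the gene of neutrophil collagenase, was the only gene past the test (limma, adjusted p under 0.05 over all genes), which is 0.00871% of the genes tested, and it lay above the sum. No gene passed below it. At an unadjusted p under 0.05 there were 534 genes (4.65%), of which 238 (2.07%) lay above the sum and 296 (2.58%) below, and with 1 library left out this count was 921 without combination replicate 3 and 416 to 697 without any other. The 95% interval of the interaction lay within -1 and 1, a 2-fold departure either way, for 10371 genes (90.3%), and within a 1.5-fold departure for 8580 genes (74.7%). Estimates beyond 1 in size were found for 42 genes, of which 8 had a mean of at least 50 normalised read counts in their highest treatment. Precision followed the level: the median standard error was 0.37 for genes with means of 10 to 50 and 0.09 for genes of 1000 and over. None of the 42 genes with an estimate beyond 1 passed. A departure was therefore often not detectable in the lowest genes, even with an estimate beyond 2-fold. Some higher genes with a departure smaller than 2-fold did not pass either. Lyz2 lay at 0.76 ± 0.13 and Thbs1 at 0.68 ± 0.14, with DMSO means of 455 and 408 normalised read counts. A gene that did not pass is therefore not shown to be additive.

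Mmp8 (chr9:7558456-7568485 of GRCm38, plus strand, a protein-coding gene) encodes a collagenase of the secondary granules of neutrophils. It had 8499, 7585 and 7974 normalised read counts in combination libraries, 5016, 5192 and 6006 in GSK-LSD1 libraries, 2040.5, 1991 and 1764 in ruxolitinib libraries and 2252, 2018 and 1953 in DMSO libraries. The 3 combination libraries were the highest of all 12, the GSK-LSD1 libraries lay between them and the rest, and the ruxolitinib and DMSO libraries overlapped. The effect of ruxolitinib on Mmp8 was 0.57 ± 0.07 (log2 ± SE) in the presence of GSK-LSD1, against -0.10 ± 0.07 in its absence. The effect of GSK-LSD1 was 2.05 ± 0.07 with ruxolitinib, against 1.38 ± 0.07 without it. The change after both drugs was 1.95, against a sum of single changes of 1.28, and the interaction was 0.67 ± 0.10 (95% interval 0.46 to 0.89, limma, adjusted p = 0.0236). On untransformed values the combination averaged 8019 normalised read counts, against 5262 when the single differences from DMSO were added. The call had little margin and could be lost by leaving out a single library of any treatment. It was lost without combination replicate 1 (limma, adjusted p = 0.115), GSK-LSD1 replicate 1 (0.115) or GSK-LSD1 replicate 2 (0.199). The same held without ruxolitinib replicate 3 (limma, adjusted p = 0.126), DMSO replicate 1 (0.207) or DMSO replicate 2 (0.0858). The estimate stayed between 0.61 and 0.75. Without the 2 libraries that stood apart it was 0.70 (adjusted p = 0.000253). The call was also lost with no filter on low values (adjusted p = 0.216), quantile normalisation (0.0557), no variance trend (0.454) or a replicate block (0.0783).

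Behind Mmp8, the 10 genes with the smallest p above the sum were ranked, counting only genes that averaged 50 or more in their highest treatment, and none of them passed. Lyz2, lysozyme of neutrophils and macrophages (chr10:117277331-117282321, minus strand), had 1117, 1127 and 1212 normalised read counts in combination libraries, 602, 526 and 568 in GSK-LSD1 libraries, 558, 589 and 490.1 in ruxolitinib libraries and 542, 426 and 396 in DMSO libraries. The combination libraries lay at about the same height and clear of the other 9, which overlapped between treatments. The effect of ruxolitinib on Lyz2 was 1.03 with GSK-LSD1 and 0.27 without it, and the interaction was 0.76 ± 0.13 (limma, adjusted p = 0.0793). This interaction passed without ruxolitinib replicate 2 or without DMSO replicate 3, and it was 0.77 (adjusted p = 0.0038) without both libraries that stood apart. The reads of Lyz2 and its close copy Lyz1 may not be fully separable, and Lyz1 had at most 0.986 in any library.

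Thbs1, thrombospondin 1, a secreted adhesive glycoprotein (chr2:118111876-118127133, plus strand), had 1895, 1610.0 and 1856 normalised read counts in combination libraries, 946, 1113 and 1149.8 in GSK-LSD1 libraries, 434, 411 and 426 in ruxolitinib libraries and 486, 385 and 355 in DMSO libraries. As for Mmp8, ruxolitinib and DMSO libraries overlapped, and the combination libraries lay above the GSK-LSD1 libraries. The effect of ruxolitinib was 0.74 with GSK-LSD1 and 0.07 without it, with an interaction of 0.68 ± 0.14 (limma, adjusted p = 0.207). The predicted gene Gm29233 overlaps an exon of Thbs1, and how reads were counted by strand is not given in the sources used here. Hp, haptoglobin, a haemoglobin-binding protein that neutrophils also store (chr8:109575128-109579172, minus strand), had 659, 529.7 and 660.3 normalised read counts in combination libraries, 347, 325 and 278 in GSK-LSD1 libraries, 275, 321 and 243 in ruxolitinib libraries and 250.3, 212 and 242 in DMSO libraries. The combination libraries stood clear of the others for Hp, and the ruxolitinib libraries overlapped both the GSK-LSD1 and the DMSO libraries. Its interaction was 0.71 ± 0.16 (limma, adjusted p = 0.394), and 0.76 (adjusted p = 0.0324) without the 2 libraries that stood apart.

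Among the other genes of this ranking, Cybb encodes the large subunit of the phagocyte NADPH oxidase, which makes superoxide. Cybb had 183, 161 and 174 normalised read counts in combination libraries, 93.9, 76.6 and 85.8 in GSK-LSD1 libraries, 130.3, 111 and 121 in ruxolitinib libraries and 91.4, 99 and 97 in DMSO libraries. The combination libraries were again the highest, and the GSK-LSD1 libraries overlapped the DMSO libraries. The effect of ruxolitinib on Cybb was 1.01 with GSK-LSD1 and 0.33 without it, and the interaction was 0.68 ± 0.17 (limma, adjusted p = 0.573). S100a8, a subunit of the calcium-binding protein calprotectin, had 2307, 2212 and 2048 normalised read counts in combination libraries, 1499, 1249 and 1357 in GSK-LSD1 libraries, 1342, 1266 and 1068 in ruxolitinib libraries and 1183, 1027 and 979 in DMSO libraries. Its combination libraries lay above all others, with an interaction of 0.48 ± 0.12 (limma, adjusted p = 0.659), or 0.55 (adjusted p = 0.0519) without the 2 libraries that stood apart. Itgam, the integrin chain CD11b of myeloid cells, had 648, 631 and 747 normalised read counts in combination libraries, 461, 456 and 459.7 in GSK-LSD1 libraries, 340.2, 343 and 355 in ruxolitinib libraries and 349.6, 311 and 292 in DMSO libraries. Its effect of ruxolitinib was 0.55 with GSK-LSD1 and 0.13 without it, and the interaction was 0.43 ± 0.11 (limma, adjusted p = 0.659). The predicted gene Gm49368 overlaps an exon of Itgam. In 8 of the 11 genes, Mmp8 included, every combination library exceeded every other library. Choosing genes above the sum favours this layout, and its share over all genes tested was not counted.

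The remaining genes of the ranking reached a positive interaction from other starting points. Glipr2 had 477, 451 and 477 normalised read counts in combination libraries, 435, 416 and 425 in GSK-LSD1 libraries, 286, 259.9 and 259 in ruxolitinib libraries and 333, 320.1 and 347 in DMSO libraries. The ruxolitinib libraries were the lowest for Glipr2, the effect of ruxolitinib was 0.14 with GSK-LSD1 and -0.31 without it, and the interaction was 0.45 ± 0.11 (limma, adjusted p = 0.458). Ifitm6, of the interferon-induced transmembrane family, had 881, 761 and 919 normalised read counts in combination libraries, 771, 629 and 751 in GSK-LSD1 libraries, 387, 363 and 322 in ruxolitinib libraries and 439, 427 and 396 in DMSO libraries. Its ruxolitinib effects likewise differed in sign, 0.25 with GSK-LSD1 and -0.24 without it, and the members of this family are similar enough for reads to be shared. Anxa3, a membrane-binding annexin of granulocytes, had 362, 374 and 333 normalised read counts in combination libraries, 238, 229 and 239 in GSK-LSD1 libraries, 396, 367 and 331 in ruxolitinib libraries and 337, 339 and 319.8 in DMSO libraries. Here the GSK-LSD1 libraries were the lowest and the combination libraries overlapped the ruxolitinib and DMSO libraries, so that the interaction of 0.46 ± 0.12 (limma, adjusted p = 0.659) came with a level after both drugs close to that after DMSO. Smim10l1, which overlaps Gm45769, had 516, 488 and 439.6 normalised read counts in combination libraries, 452, 477 and 449 in GSK-LSD1 libraries, 466, 436 and 475 in ruxolitinib libraries and 552, 605 and 581 in DMSO libraries. Relative to DMSO, both drugs together lay at -0.27, GSK-LSD1 at -0.34 and ruxolitinib at -0.34, the single drugs summing to -0.67.

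**Figure D1:**
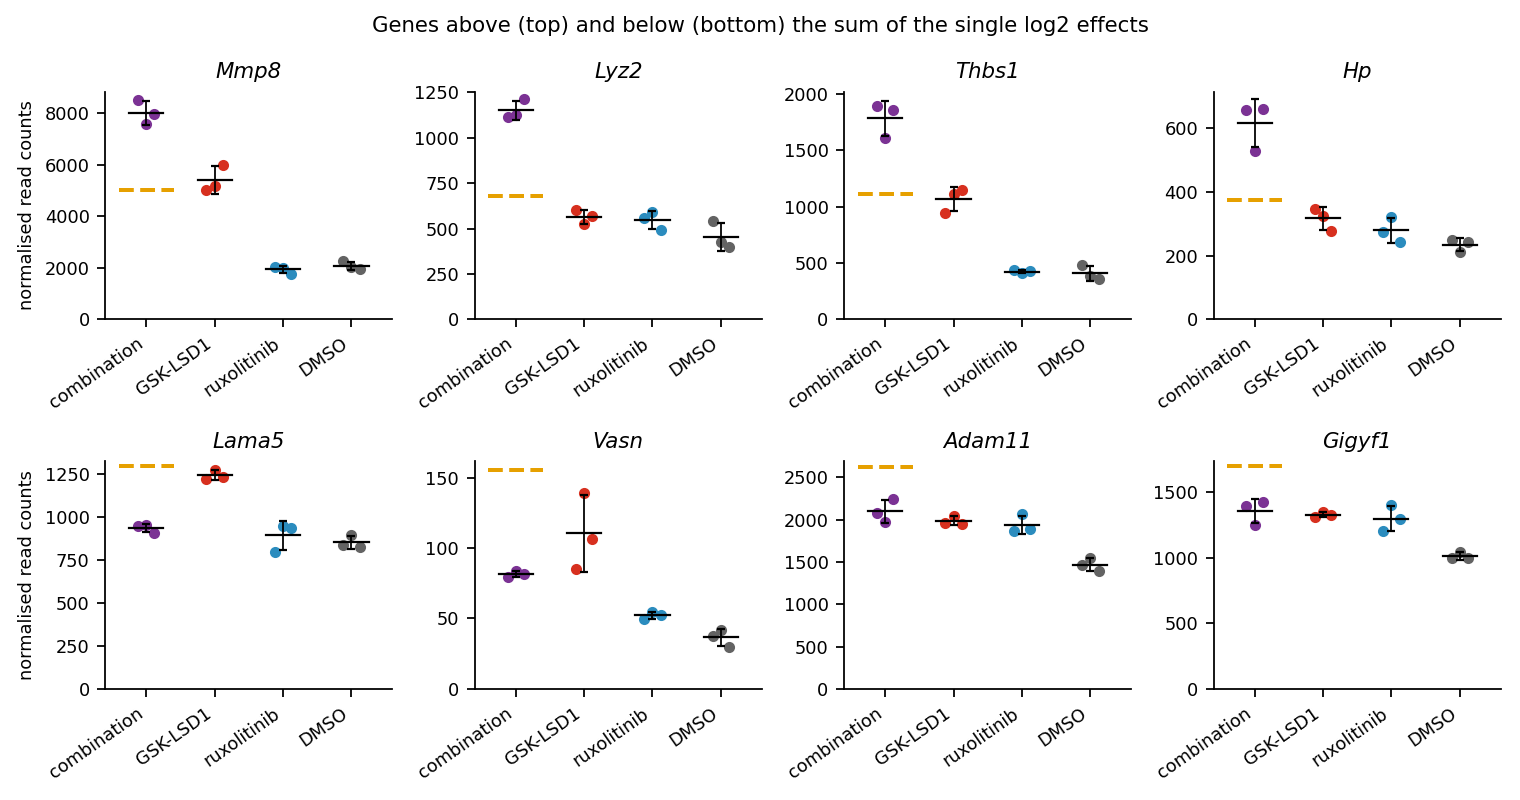
Normalised read counts of 8 genes in each library (points), by treatment, with the mean and SD of 3 libraries (black) and, over the combination, the level that the sum of the single log2 effects gives (dashed orange line). In the upper row the combination libraries lie above the dashed line (Mmp8 averaged 8019 against 5018), and in the lower row below it (Lama5 averaged 934 against 1297).

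No gene passed below the sum, and the 10 with the smallest p there showed several layouts. Lama5, a laminin chain of basement membranes (chr2:180176373-180225859, minus strand), had 943, 953 and 907 normalised read counts in combination libraries, 1222, 1273 and 1229.6 in GSK-LSD1 libraries, 794, 948 and 934 in ruxolitinib libraries and 838, 894 and 823 in DMSO libraries. The GSK-LSD1 libraries were the highest, and the combination libraries overlapped the ruxolitinib libraries and lay just above the DMSO libraries. The effect of GSK-LSD1 on Lama5 was 0.07 with ruxolitinib and 0.54 without it, with an interaction of -0.47 ± 0.10 (limma, adjusted p = 0.207; adjusted p = 0.0232 without ruxolitinib replicate 1, 0.0951 without the 2 libraries that stood apart). Vasn, a membrane protein that binds TGF-beta, had 79.3, 83.9 and 81.5 normalised read counts in combination libraries, 84.9, 139 and 107 in GSK-LSD1 libraries, 49.7, 54.5 and 52.4 in ruxolitinib libraries and 37.7, 42 and 29.7 in DMSO libraries. Each treatment lay above DMSO, the combination below GSK-LSD1 alone, and the interaction was -0.92 ± 0.24 (limma, adjusted p = 0.659). GSK-LSD1 replicates of Vasn spread widely, and an exon of Vasn overlaps Dnaja3. Enpp5, of a family of ectonucleotidases, had 61.5, 66.1 and 55.7 normalised read counts in combination libraries, 77.9, 83.6 and 86.8 in GSK-LSD1 libraries, 63.7, 71.9 and 59.3 in ruxolitinib libraries and 35.8, 50 and 50.5 in DMSO libraries. The combination libraries overlapped the ruxolitinib libraries and lay below all GSK-LSD1 libraries, with an interaction of -0.95 ± 0.22 (limma, adjusted p = 0.458).

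In 3 genes of this ranking, Adgrg3, Adam11 and Gigyf1, DMSO libraries were the lowest and the levels after either drug or both were of similar size. Adam11, a catalytically inactive member of the ADAM family, had 2077, 1974 and 2248 normalised read counts in combination libraries, 1967, 2049 and 1951 in GSK-LSD1 libraries, 1872, 2065 and 1885 in ruxolitinib libraries and 1459.8, 1552 and 1392 in DMSO libraries. Relative to DMSO, both drugs together lay at 0.52, GSK-LSD1 at 0.44 and ruxolitinib at 0.40, the single drugs summing to 0.84. Adgrg3, an adhesion G protein-coupled receptor of granulocytes, had 2118, 1937 and 1960.1 normalised read counts in combination libraries, 2037, 1979 and 1995 in GSK-LSD1 libraries, 1856, 1878 and 1883 in ruxolitinib libraries and 1464, 1640.4 and 1409 in DMSO libraries. With GSK-LSD1 present the effect of ruxolitinib on Adgrg3 was -7.57e-05 (log2), against 0.32 in its absence. Gigyf1, an adaptor in translational control, averaged 1354 ± 91.9, 1328 ± 19.2 and 1299 ± 98.4 normalised read counts in combination, GSK-LSD1 and ruxolitinib libraries, and 1013 ± 27.9 in DMSO libraries (SD, n = 3 each). The interactions were -0.33 ± 0.09, -0.32 ± 0.09 and -0.33 ± 0.09 for Adam11, Adgrg3 and Gigyf1 (limma, adjusted p of 0.659 to 0.677). In 6 of the 10 genes below the sum every treated library exceeded every DMSO library. DMSO is a shared term of both single effects and enters the interaction with a plus sign, so choosing genes below the sum favours this layout. Its share over all genes tested was not counted.

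The other genes below the sum were Sema4f, a semaphorin, at -0.40 ± 0.11, Pex26, a peroxisomal import factor, at -0.52 ± 0.14, and Mapk8ip3, a JNK scaffold protein, at -0.42 ± 0.11. Sema4f had 678, 751 and 598 normalised read counts in combination libraries, 918, 863 and 822 in GSK-LSD1 libraries, 745, 812 and 822 in ruxolitinib libraries and 739.8, 793 and 794 in DMSO libraries. For Sema4f the combination libraries lay below all GSK-LSD1 libraries and reached into the range of the others. Pex26 had 147, 128 and 140.2 normalised read counts in combination libraries, 172, 189 and 163 in GSK-LSD1 libraries, 218, 201 and 231 in ruxolitinib libraries and 191, 202 and 177 in DMSO libraries. Its combination libraries were the lowest of all 12. Exons of Mapk8ip3 overlap those of Eme2, Mrps34 and Nme3, and Pex26 overlaps Gm44014. All 21 genes ranked on either side kept the same side of the sum when single differences were added on untransformed values of the same libraries.

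**Figure D2:**
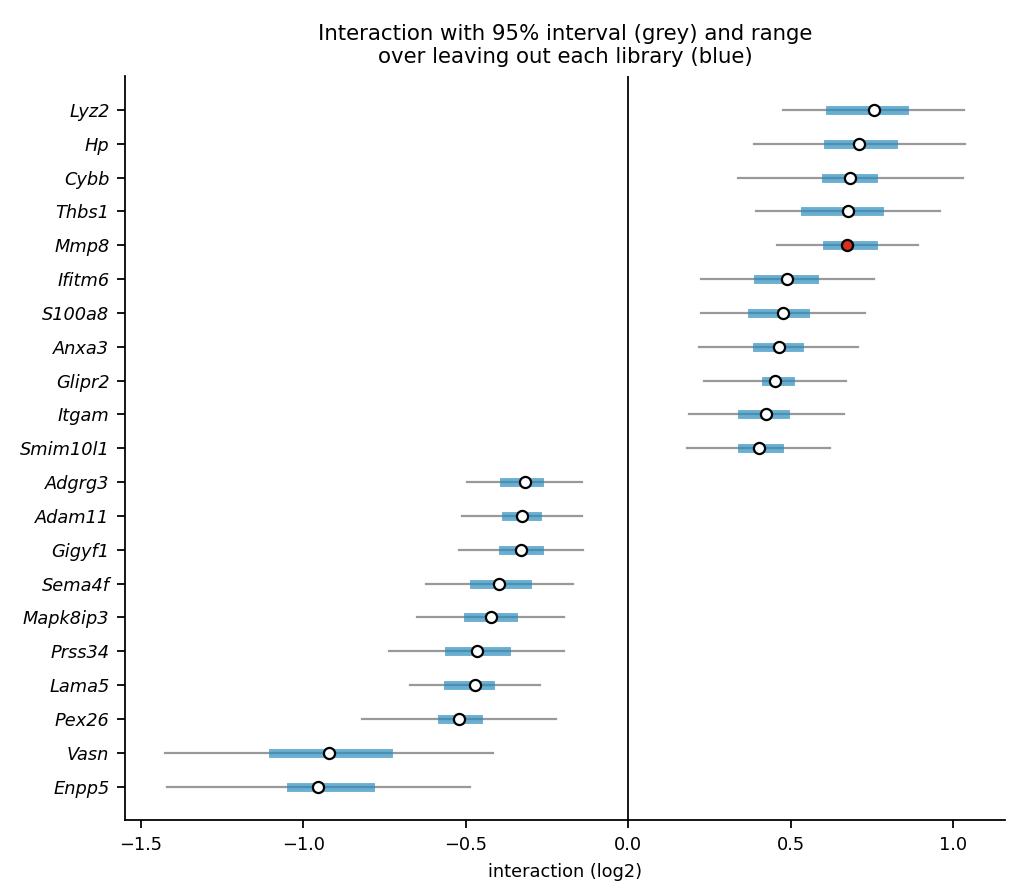
Interaction (log2) of the 21 ranked genes, with the estimate (point, red where past the test), its 95% interval (grey) and the range of the estimate when each of the 12 libraries was left out in turn (blue). No range reached 0, which choosing the genes by p in these libraries favours, and the range of Mmp8 was 0.61 to 0.75.

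The genes above the sum were then placed among lists of known function. Of 24 secondary and tertiary granule genes, 18 were tested. In this list 15 members lay above the sum and 3 below, 10 had an unadjusted p under 0.05 above the sum (2.07% of all genes tested) and 0 below, and 1, Mmp8, passed over all genes. The median interaction of the list was 0.46, against -0.01 over all genes tested. The median change after both drugs was 1.07, against a median sum of 0.63. Over all genes tested 48.5% lay above the sum. The interaction is also the effect of ruxolitinib with GSK-LSD1 minus that without it, so the same 15 genes had the larger effect. The medians of these 2 effects over the 18 genes were 0.92 with GSK-LSD1 and 0.36 without it. Ltf and Olfm4 reached the level filter only through the combination libraries, and without these 2 the median over 16 genes was 0.41, with 9 at an unadjusted p under 0.05. The 6 members not tested were Camp, Mmp25, Lyz1, Ceacam10, Orm1 and Itgb2l, with at most 4.97 normalised read counts in any library. Without ruxolitinib replicate 2 and combination replicate 3 the median was 0.44, with 9 members at an unadjusted p under 0.05, and with 1 library left out it lay between 0.33 and 0.58. The count was then 8 to 11.

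Within this list the ruxolitinib effect on the genes differed in size more than in direction. Chil3, a chitinase-like protein, had 779, 734 and 720.0 normalised read counts in combination libraries, 379, 373 and 363 in GSK-LSD1 libraries, 597, 556 and 496 in ruxolitinib libraries and 377, 362 and 336 in DMSO libraries. Its combination libraries exceeded the ruxolitinib libraries, which exceeded the libraries without ruxolitinib, and the interaction was 0.39 ± 0.11 (limma, adjusted p = 0.687). Close copies of Chil3 exist, so its reads may be shared. Ltb4r1, the leukotriene B4 receptor, had 100.2, 111 and 112 normalised read counts in combination libraries, 55.9, 46.8 and 56.8 in GSK-LSD1 libraries, 90.5, 87.3 and 83 in ruxolitinib libraries and 59.6, 64 and 70.3 in DMSO libraries. Cd177, a surface glycoprotein of neutrophils, had 277, 247 and 311 normalised read counts in combination libraries, 144, 136 and 129.6 in GSK-LSD1 libraries, 143, 159 and 159 in ruxolitinib libraries and 122, 88 and 113 in DMSO libraries. In both genes the combination libraries were the highest, and the interactions were 0.59 ± 0.19 and 0.49 ± 0.17 (limma, adjusted p = 0.864 and 0.986). Lcn2, the iron-scavenging lipocalin 2, had 934, 882 and 1029 normalised read counts in combination libraries, 639, 545 and 589 in GSK-LSD1 libraries, 693, 791 and 548 in ruxolitinib libraries and 634, 519 and 478 in DMSO libraries. The combination libraries of Lcn2 exceeded all others by a smaller margin, with an interaction of 0.37 ± 0.16. Chil1 at 0.68 ± 0.27 and Olfm4, a marker of a subset of neutrophils, at 1.08 ± 0.43 completed the 10, Olfm4 from at most 25.6 normalised read counts.

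Ltf, lactoferrin, had 15.9, 20.7 and 23.9 normalised read counts in combination libraries, 7.99, 4.98 and 2.99 in GSK-LSD1 libraries, 12.9, 11.3 and 8.89 in ruxolitinib libraries and 5.96, 5 and 1.98 in DMSO libraries, too few for its interaction of 0.55 ± 0.56 to be told from 0 (95% interval -0.62 to 1.71). Ngp, neutrophilic granule protein, had 111, 93.7 and 121 normalised read counts in combination libraries, 40, 29.9 and 45.9 in GSK-LSD1 libraries, 87.5, 150.0 and 105 in ruxolitinib libraries and 55.6, 58 and 39.6 in DMSO libraries. For Ngp the combination and the ruxolitinib libraries overlapped, the effect of ruxolitinib was 1.48 with GSK-LSD1 and 1.13 without it, and the interaction was 0.36 ± 0.28. The 3 members below the sum were Wfdc21 at -0.50 ± 0.48, Abca13 at -0.05 ± 0.25 and Ceacam1 at -0.03 ± 0.19, none with an unadjusted p under 0.05.

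**Figure D3:**
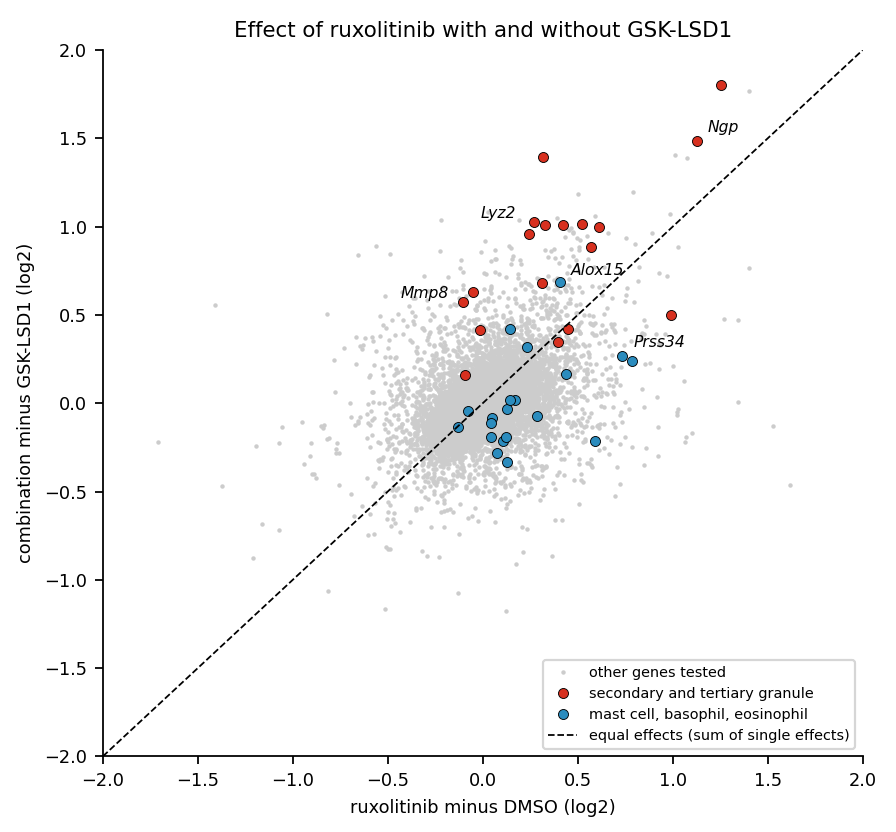
Effect of ruxolitinib in the presence of GSK-LSD1 (combination minus GSK-LSD1, vertical axis) against its effect in its absence (ruxolitinib minus DMSO, horizontal axis), in log2, for each gene tested, with 1 gene outside the axes. Secondary and tertiary granule genes (red) lie mostly above the dashed line of equal effects (15 of 18), and mast cell, basophil and eosinophil genes (blue) mostly below it (16 of 20). The vertical distance from the line is the interaction, so these counts repeat those above and below the sum. Of all genes tested 48.5% lay above.

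C/EBP factors bind near the start sites of many granule genes, so promoter windows of 250 bases before the RefSeq start (GRCm38.p6) were searched on both strands for the letters TTGCNNAA, a core of C/EBP sites, for TTCNNNGAA, a core of STAT sites, and for AATCACNGC, a core of GFI1 sites. A window was found for 15 of the 18 tested granule genes. Of these 15, 5 held TTGCNNAA (33.3%, against 7.3% of the 8865 windows of all genes tested), 1 held TTCNNNGAA (6.67%, against 6.19%) and 0 held AATCACNGC (against 0.79%). The 5 were Mmp8, Lcn2, Ltf, Ngp and Slpi. Of these, Mmp8 and Lcn2 were among the 10 members with an unadjusted p under 0.05, and Ltf, Ngp and Slpi were not. A link between the letters and the interaction was not tested. The C/EBP letters were also in 3 of 16 windows of the mast cell, basophil and eosinophil list (18.8%), whose genes lay mostly below the sum, and in 3 of 20 of the mature neutrophil list (15%). The windows of the 3 genes among the 10 with an unadjusted p under 0.05 that held a match are shown because they include the gene past the test, 5′ to 3′ on the gene's strand with the matched letters in capitals: a C/EBP match in Mmp8 (chr9:7558179-7558428, plus strand, first letter 19 bases before the start) and in Lcn2 (chr2:32387740-32387989, minus strand, 216 bases before), and a STAT match in Chil3 (chr3:106167565-106167814, minus strand, 172 bases before).
Mmp8: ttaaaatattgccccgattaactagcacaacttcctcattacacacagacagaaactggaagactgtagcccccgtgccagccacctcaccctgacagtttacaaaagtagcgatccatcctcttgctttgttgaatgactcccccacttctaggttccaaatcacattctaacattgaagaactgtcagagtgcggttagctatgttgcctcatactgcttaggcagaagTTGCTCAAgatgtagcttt
Lcn2: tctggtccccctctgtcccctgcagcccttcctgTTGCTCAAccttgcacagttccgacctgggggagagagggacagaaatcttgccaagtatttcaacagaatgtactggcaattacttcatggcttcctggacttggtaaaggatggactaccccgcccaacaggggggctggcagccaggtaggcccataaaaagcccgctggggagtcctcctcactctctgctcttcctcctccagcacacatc
Chil3: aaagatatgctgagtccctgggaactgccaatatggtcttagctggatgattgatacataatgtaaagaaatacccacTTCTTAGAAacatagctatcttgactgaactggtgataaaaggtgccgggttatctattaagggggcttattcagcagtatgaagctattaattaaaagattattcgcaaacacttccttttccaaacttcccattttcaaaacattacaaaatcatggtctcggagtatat
Mmp8 and Lcn2 hold the same 8 letters, TTGCTCAA, in these windows. Over all 238 genes above the sum at an unadjusted p under 0.05, 12.6% of 174 windows held the C/EBP letters, against 7.08% of 226 windows of the 296 genes below. For the STAT letters the shares were 8.05% above and 4.42% below, against 6.19% of all. Matches are a description of the letters and not of binding.

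Primary granule genes, which are filled earlier in maturation, lay nearer to the sum than the secondary and tertiary list. Of 10 tested, 8 lay above it, with a median interaction of 0.16. The median of the mature neutrophil genes was 0.16 as well. Over all genes tested 48.5% lay above the sum, and 2.07% with an unadjusted p under 0.05. Of the 10, 1 had such a p above the sum, Mgst1. This count was 2 without combination replicate 3, 4 without ruxolitinib replicate 1 or 2, and 0 without combination replicate 1, GSK-LSD1 replicate 2, ruxolitinib replicate 3, DMSO replicate 1 or DMSO replicate 3. Without both libraries that stood apart it was 5, with a median of 0.21. Mpo, myeloperoxidase, had 11974, 12041 and 12906 normalised read counts in combination libraries, 7042, 7160.2 and 7402 in GSK-LSD1 libraries, 10693, 11874 and 8395 in ruxolitinib libraries and 6720.1, 6385 and 6591 in DMSO libraries. Elane, neutrophil elastase, had 151, 131 and 176 normalised read counts in combination libraries, 82.9, 76.6 and 72.8 in GSK-LSD1 libraries, 274, 303 and 202 in ruxolitinib libraries and 144, 135 and 134 in DMSO libraries. Both were higher in libraries with ruxolitinib whether GSK-LSD1 was present (0.77 for Mpo, 0.96 for Elane) or not (0.64 and 0.89). Their interactions were 0.13 ± 0.12 (95% interval -0.11 to 0.38) and 0.07 ± 0.19 (95% interval -0.33 to 0.47). Elane was lower in libraries with GSK-LSD1, at -0.75 with and -0.82 without ruxolitinib, and the combination came near the DMSO level.

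Of 26 tested genes of mature neutrophils, 21 lay above the sum, 8 had an unadjusted p under 0.05 above it and 0 below, and the median was 0.16. Over all genes tested 48.5% lay above the sum, and 2.07% above and 2.58% below it had such a p. Fpr2 reached the level filter only through the combination libraries, and without it 20 of 25 lay above, with a median of 0.14. Among the 8 were S100a8, Itgam, S100a9, Anxa1, Cebpe, Cxcr2 and C5ar1. S100a9, the partner of S100a8 in calprotectin, had 6871, 6113 and 6911 normalised read counts in combination libraries, 4137, 3695 and 4331 in GSK-LSD1 libraries, 3648, 3747 and 2699 in ruxolitinib libraries and 3219, 3071 and 2530.1 in DMSO libraries. Its combination libraries exceeded all others, with an interaction of 0.52 ± 0.14 (limma, adjusted p = 0.659). Cebpe, which encodes C/EBP epsilon, had 301, 301 and 346 normalised read counts in combination libraries, 178, 167 and 200.4 in GSK-LSD1 libraries, 194, 223 and 166 in ruxolitinib libraries and 136, 139 and 163 in DMSO libraries. The effect of ruxolitinib on Cebpe was 0.79 with GSK-LSD1 and 0.40 without it, and its interaction was 0.39 ± 0.16 (limma, adjusted p = 0.998). Cxcr2, a chemokine receptor, departed in another way: the effect of ruxolitinib on it was 0.14 with GSK-LSD1 and -0.40 without it. The count of 8 was 5 without combination replicate 3, GSK-LSD1 replicate 2, ruxolitinib replicate 3 or DMSO replicate 1, and 6 to 9 without any other library. Without both libraries that stood apart 7 lay above and 1 below at that level, with a median of 0.16.

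Mast cell, basophil and eosinophil genes lay on the other side. Of 20 tested, 16 lay below the sum, 5 had an unadjusted p under 0.05 below it (2.58% of all genes tested) and 1 above, none passed, and the median was -0.20. Prss34, a basophil protease, had 535, 599.8 and 469 normalised read counts in combination libraries, 438, 463 and 425 in GSK-LSD1 libraries, 583, 642 and 559 in ruxolitinib libraries and 318, 367 and 388 in DMSO libraries. Ruxolitinib and combination libraries overlapped at the top, DMSO libraries were the lowest, and the interaction was -0.47 ± 0.13 (limma, adjusted p = 0.659). Fcer1a, a chain of the high-affinity IgE receptor, had 3903, 4227 and 2759.7 normalised read counts in combination libraries, 3789, 4001 and 3494 in GSK-LSD1 libraries, 5239, 4808 and 4819 in ruxolitinib libraries and 3647, 4219 and 4353 in DMSO libraries. Its combination libraries overlapped those of GSK-LSD1 and of DMSO, and the interaction was -0.36 ± 0.15 (limma, adjusted p = 0.998). The mast cell proteases Mcpt1 and Mcpt2 and the basophil protease Mcpt8, whose reads may be shared within their family, lay at -0.36 ± 0.13, -0.32 ± 0.14 and -0.24 ± 0.11. The gene above the sum was Alox15, a lipoxygenase of eosinophils and macrophages, at 0.28 ± 0.11. The count of 5 was 2 without combination replicate 3, 3 without GSK-LSD1 replicate 3, 8 without ruxolitinib replicate 1 and 1 without DMSO replicate 1. Without both libraries that stood apart it was 5, with a median of -0.15, and Prss34 was at -0.32 (limma, adjusted p = 0.504). The summed level of the 27 genes measured was 74455 to 81771 normalised read counts in combination libraries, 80268 to 84205 in GSK-LSD1 libraries, 67084 to 74449 in ruxolitinib libraries and 61404 to 69129 in DMSO libraries, with 2 genes (Ear1 and Ear6) at 0 in all libraries. These sums moved with treatment. Those of the 24 secondary and tertiary granule genes were 12770 to 13930 in combination libraries and 8180 to 9170 in GSK-LSD1 libraries. The part of the mast cell, basophil and eosinophil sums in the granule results was not tested.

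Monocyte and macrophage genes were mixed: of 23 tested, 3 had an unadjusted p under 0.05 above the sum and 1 below, with a median of 0.05 (2.07% of all genes tested had such a p above and 2.58% below). Adgre1, the macrophage marker F4/80, had 124, 102 and 90.5 normalised read counts in combination libraries, 75.9, 85.6 and 102 in GSK-LSD1 libraries, 39.8, 37 and 24.7 in ruxolitinib libraries and 51.6, 45 and 44.6 in DMSO libraries. Ruxolitinib libraries were the lowest for Adgre1, and the combination and GSK-LSD1 libraries overlapped (interaction 0.75 ± 0.26). Csf1r, the receptor for macrophage colony-stimulating factor, lay at 0.66 ± 0.31, Psap, a lysosomal activator protein, at 0.24 ± 0.08, and Cd63, a granule tetraspanin, at -0.26 ± 0.09. Of 18 listed dendritic cell and MHC class II genes only 5 were tested. Of these 4 lay below the sum, against 5920 of all 11484 genes tested, among them the co-stimulatory molecule Cd86 at -0.64 ± 0.29. Of 14 tested erythroid genes 9 lay below it (as 5920 of the 11484 genes tested did), and Slc4a1, the red cell anion exchanger, was at 1.25 ± 0.42 with 14.0 to 82.4 normalised read counts over the 12 libraries.

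**Figure D4:**
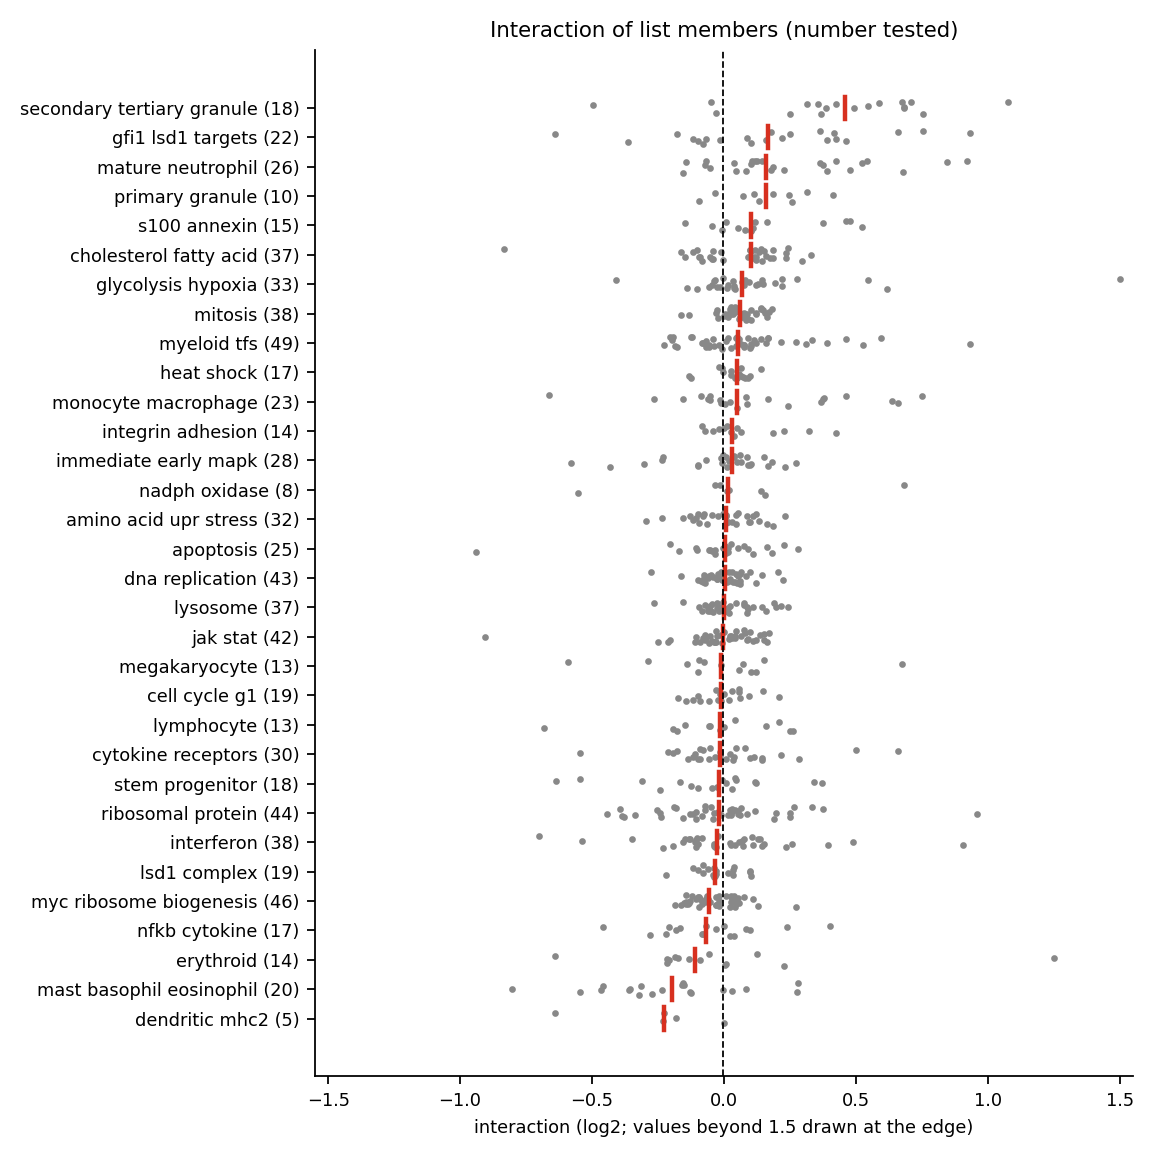
Interaction (log2, horizontal axis) of each tested member (grey points) of 32 gene lists, with the list's median (red bar), sorted by median and with the number tested in parentheses. The median over all genes tested (-0.01) is the dashed line, and the secondary and tertiary granule list lies highest at 0.46. The dendritic cell list (5 tested) and the mast cell list (20 tested) lie lowest at -0.23 and -0.20.

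Gfi1b and Gfi1, higher in all libraries with GSK-LSD1, lay near the sum. Gfi1b, a repressor gene known to be derepressed by LSD1 inhibition, had 4494, 4651 and 5223 normalised read counts in combination libraries, 4194, 3912 and 4015 in GSK-LSD1 libraries, 917, 1130.2 and 858 in ruxolitinib libraries and 833, 743 and 734 in DMSO libraries. GSK-LSD1 and combination libraries were far above the others, by 2.31 with and 2.39 without ruxolitinib, and the interaction was -0.08 ± 0.12 (95% interval -0.32 to 0.16). Gfi1 had 432, 382 and 441 normalised read counts in combination libraries, 349, 309.5 and 385 in GSK-LSD1 libraries, 124, 109 and 87.9 in ruxolitinib libraries and 91.4, 99 and 93.1 in DMSO libraries. Its interaction was 0.10 ± 0.17 (95% interval -0.24 to 0.45). Of 22 tested genes listed as targets of GFI1 and LSD1, 5 had an unadjusted p under 0.05 above the sum (Lyz2, Itgam, Id1, Cebpe and Csf1r) and 2 below (Cd86 and Rgs1), with a median of 0.17, against 2.07% above and 2.58% below of all genes tested. Lyz2, Itgam and Cebpe stand in the neutrophil lists as well. Of 19 genes of the LSD1 complex none reached that level, and Kdm1a itself was at 0.04 ± 0.08.

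Of 42 genes of JAK-STAT signalling, 0 had an unadjusted p under 0.05 above the sum and 2 below, with a median of -0.003. Over all genes tested 2.58% lay below at that level, and a count of 2 in 42 is near this background. The 2 were Socs2, a feedback inhibitor of cytokine receptors, and Il4ra, the interleukin-4 receptor chain. Socs2 had 4576, 4689 and 4323 normalised read counts in combination libraries, 5609.9, 5066 and 5199 in GSK-LSD1 libraries, 5201, 5523 and 5046 in ruxolitinib libraries and 5371, 5216 and 4899.7 in DMSO libraries. The combination libraries of Socs2 were the lowest of all 12, and the interaction was -0.25 ± 0.08 (limma, adjusted p = 0.907). Il4ra had 4651, 4648 and 4405 normalised read counts in combination libraries, 5743, 6021 and 5523 in GSK-LSD1 libraries, 4058, 4669.8 and 4223 in ruxolitinib libraries and 4756, 4639 and 4671 in DMSO libraries. GSK-LSD1 libraries were the highest for Il4ra, and the interaction was -0.21 ± 0.08 (limma, adjusted p = 0.998). The STAT target genes Cish, Socs3 and Pim1 were at -0.11 ± 0.18, -0.07 ± 0.09 and -0.03 ± 0.07, none past the test (limma, adjusted p = 1). Ruxolitinib effects on these 3 genes were -0.19, -0.09 and 0.02 with GSK-LSD1. Without it they were -0.08, -0.02 and 0.05, and no effect passed the test. The 95% intervals of their interactions, -0.49 to 0.28, -0.26 to 0.13 and -0.18 to 0.12, all span 0. Csf3r had 1559, 1749 and 2300.2 normalised read counts in combination libraries, 1618, 1658 and 1616 in GSK-LSD1 libraries, 1674, 1899.8 and 1748 in ruxolitinib libraries and 1645, 1697 and 1511 in DMSO libraries. Csf3r at 0.04 ± 0.13 (95% interval -0.23 to 0.32) and Cebpa at 0.03 ± 0.12 (-0.23 to 0.29) had intervals that span 0.

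Genes of growth lay near the sum by the medians of their lists. Myc had 4169.7, 4265 and 4918 normalised read counts in combination libraries, 4451, 4176 and 4369.8 in GSK-LSD1 libraries, 5493, 6302 and 5160.3 in ruxolitinib libraries and 5662, 5421 and 5499 in DMSO libraries. Libraries with GSK-LSD1 were lower, ruxolitinib and DMSO libraries overlapped, and the interaction was 0.01 ± 0.10 (95% interval -0.20 to 0.21). Over 46 genes of MYC targets and ribosome biogenesis the median change after both drugs was -0.51, against a median sum of -0.44, with 1 gene above the sum (Mxi1) and 0 below at an unadjusted p under 0.05. Of 43 DNA replication genes, 1 lay above (Hells) and 1 below (Orc1) at that level, with a median interaction of 0.00. Of 38 mitosis genes none did, although 32 lay above the sum (84.2%, against 48.5% of all genes tested), with a median of 0.06. Of 44 ribosomal protein genes 0 lay above and 4 below at that level (Rpl37, Rplp2, Rps19 and Rpl14), between -0.39 and -0.24. The list median was -0.02. Over all genes tested 2.07% lay above and 2.58% below at an unadjusted p under 0.05.

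Some genes of low oxygen and sterol response had positive interactions with ruxolitinib levels below DMSO levels. Of 33 glycolysis and hypoxia genes 3 had an unadjusted p under 0.05 above the sum (2.07% of all genes tested) and 0 below. Ankrd37, a gene induced by hypoxia, had 19.8, 12.8 and 14.9 normalised read counts in combination libraries, 9.99, 10.9 and 9.97 in GSK-LSD1 libraries, 2.98, 11.3 and 12.8 in ruxolitinib libraries and 21.8, 19 and 26.7 in DMSO libraries. DMSO libraries were higher than nearly all others, single-drug libraries lay mostly below the combination libraries, and the interaction was 1.96 ± 0.53 (limma, adjusted p = 0.659) at levels where few counts set the value. Bnip3, a mitochondrial protein induced by hypoxia, had 90.3, 74 and 90.5 normalised read counts in combination libraries, 121, 92.6 and 82.8 in GSK-LSD1 libraries, 47.8, 50.3 and 71.1 in ruxolitinib libraries and 103, 88 and 106 in DMSO libraries. Ruxolitinib libraries were the lowest, and Bnip3 lay at 0.62 ± 0.24 and Ndrg1 at 0.55 ± 0.25. Of 37 cholesterol and fatty acid genes 3 did so above the sum, against the same background of 2.07%, and 0 below: Hmgcs1 at 0.24 ± 0.08, Insig1 at 0.29 ± 0.13 and Msmo1 at 0.19 ± 0.09. Their ruxolitinib effects with GSK-LSD1 were -0.01, -0.01 and -0.13, against -0.25, -0.30 and -0.32 without it.

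Genes on either side of the sum differed in features that the contrast did not use. Median transcript GC content was 48.0% for the 238 genes above the sum at an unadjusted p under 0.05 and 53.0% for the 296 below, against 49.7% for all genes tested with a GC value. Across 11053 genes, which share libraries and are not independent, Spearman's rho with GC content was -0.20 for the interaction, 0.26 for the effect of ruxolitinib with GSK-LSD1 and 0.41 without it. For GSK-LSD1 it was 0.004 with ruxolitinib and 0.11 without. Of the 2211 genes with the highest GC content 19 lay above and 96 below at that level, and of the 2211 with the lowest 57 above and 28 below. After a correction for GC content 3 genes passed (Mmp8, Lyz2 and Hp), all above the sum, and the granule list median was 0.50. Long noncoding and similar transcripts made up 2.1% of the genes above and 7.43% of those below, against 2.78% of all. Among them, named after their values were seen, Malat1 had 2874, 3148 and 2306 normalised read counts in combination libraries, 2323, 3135 and 2994 in GSK-LSD1 libraries, 2715, 3227 and 2217 in ruxolitinib libraries and 1453, 2232 and 1432 in DMSO libraries. The 3 treatments overlapped for Malat1, and DMSO replicate 2 reached into their range, with an interaction of -0.71 ± 0.21 (limma, adjusted p = 0.689). Kcnq1ot1, a transcript antisense to Kcnq1 and named in the same way, lay at -1.26 ± 0.36.

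The interaction can also be read as a difference between 2 effects of ruxolitinib. Of the 238 genes above at an unadjusted p under 0.05, the ruxolitinib effect had opposite signs with and without GSK-LSD1 in 161, was larger in size with GSK-LSD1 in 48 and smaller in 29. Of the 296 genes below, it had opposite signs in 239, was larger with GSK-LSD1 in 13 and smaller in 44. For GSK-LSD1 the signs with and without ruxolitinib were opposite in 86 of the genes above and 167 of those below. These counts follow in part from choosing genes by the interaction and are a description only.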

How the data were processed

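RNA-seq of total RNA was examined in 12 libraries, 3 per treatment, grouped by the treatment named in the labels. The deposited table holds a normalised signal per gene, read counts divided by a factor per library with 0.00001 added. The submitters' processing notes name STAR, DESeq2, mm10 and GRCm38, without versions or roles. Strand handling and filters are not given in the sources used here. The constant was taken off, and values were whole multiples of a step per library. Because of the constant they were not taken as recovered reads, and no count test was run. Sums of multiples were 8260995 to 8528400, so depth hardly differed.

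Log2(value + 1) was fitted with limma 3.58.1 (R 4.3.3), with a mean per treatment, a variance trend and 8 residual degrees of freedom, for genes with a mean of at least 10 over the libraries. Log2 differences understate changes of low genes. P-values were Benjamini-Hochberg adjusted over 11484 genes, with a threshold of 0.05. Single-drug effects come from the same fit and are given as descriptions with their SE. Named genes are those past the test or, with under 5 past it in a direction, the 10 with the smallest p there (mean of at least 50 in the highest treatment, no predicted symbol), plus 15 genes of prior interest and the list members with an unadjusted p under 0.05. Some other list members were named after their values were seen. The genes and the 32 lists were chosen with earlier results of these data known. Positions and GC content are from GENCODE vM21 (GRCm38), matched by symbol, and promoters from RefSeq. No name is given to the 27 symbols that read as dates or the 2 that occur repeatedly. The procedure was tested on simulated data. The alternatives were other pseudocounts, filters, scalings and variance models, a replicate block, a GC correction and leaving out libraries.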

Additional observations from a re-analysis of the deposited data

How the results depend on the processing

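The number of genes past the test depended on the processing. Mmp8 was above the sum in all 27 alternatives. Its call was lost, leaving 0 genes past the test, with no filter on low values (0.67, adjusted p = 0.216), quantile normalisation (0.66, adjusted p = 0.0557), no variance trend (0.67, adjusted p = 0.454) and the replicate block (0.67, adjusted p = 0.0783). The unadjusted counts at p under 0.05 were 534 in the fit reported and 837 with no filter. On the square-root scale 4 genes passed, all 4 above (Hp, Lyz2, Mmp8 and Thbs1). With array weights 5 passed, 4 above (Hp, Lyz2, Mmp8 and S100a8) and 1 below (Lama5). With the GC correction 3 passed, 3 above (Hp, Lyz2 and Mmp8). With the replicate block and the GC correction together 5 passed, 3 above (the same Hp, Lyz2 and Mmp8) and 2 below (Kcnq1ot1 and Malat1). Without ruxolitinib replicate 2 and combination replicate 3, 3 passed, 3 above (Hp, Lyz2 and Mmp8). Leaving out each library in turn gave 0 to 2 genes past the test, 0 to 2 above and 0 to 1 below, with an interaction of Mmp8 of 0.61 to 0.75 and adjusted p of 0.00682 to 0.207. The other alternatives (pseudocounts of 0.25 and 5, a mean of at least 50, upper-quartile scaling, robust empirical Bayes) gave 1 gene, Mmp8. The cause of these changes was not tested.

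The 21 ranked genes kept their side of the sum in every alternative (567 values), and 4 of 13 other genes of prior interest did. The 21 were chosen by the p of the interaction in these same libraries, which favours a constant side. These counts are therefore a description only. No pairing of the libraries by replicate number was seen over the genes tested. Deviations of same-numbered libraries from their group means correlated between -0.15 and 0.15 (median -0.01), with 1 of 18 pairs over 0.1. Of 12 libraries, 3 correlated best with their own number. With deviations from means of 3 libraries, these correlations cannot show that the replicates were unpaired. With 3 libraries per treatment and an interaction built from 4 means, departures were often not detectable in low genes. None of the 42 genes with an estimate beyond 2-fold passed in the fit reported. At higher levels Lyz2 at 0.76 and Thbs1 at 0.68 did not pass in the fit reported.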
